A study of Mus musculus with 5 samples.

Results

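The MYC and MAX network is a set of related transcription factor genes, and 10 of them were followed in dendritic cells with and without Etv3, a gene of the ETS transcription factor family. The genes were taken by symbol: Myc, Mycl, Mycn, Max, Mxd1, Mxd4, Mxi1, Mnt, Mlx and Mga. All 10 were among the 27678 genes of the deposited table, and all 10 passed the filter on low values, which asked for 10 or more normalized counts in 2 or more libraries and left 13813 genes in total. The libraries were 2 from Etv3+/+ mice and 3 from Etv3-/- mice. In both genotypes, bone marrow had been grown for 6 days in GM-CSF (20 ng/ml) and IL-4 (5 ng/ml), which turn marrow progenitors into dendritic cells. The sorted population was CD11c+, CD11b intermediate, MHC class II high and CD115-, with a stated purity above 95%. Up to 60000 cells gave the RNA of a library, which was amplified with a SMART-Seq low-input kit. Mouse age and strain and the removed stretch of Etv3 are not stated in the labels. Since the labels also do not tie replicates to separate mice or cultures, the p-values cover the spread among these libraries alone, which could be technical.

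MYC, MYCL and MYCN bind DNA only as pairs with MAX, mostly at the E-box CACGTG, and raise the transcription of genes for ribosome making, metabolism and cell division. MXD1, MXD4, MXI1, MNT and MGA pair with MAX too, and bring repressor complexes to such sites; MLX is a MAX-like protein that pairs with MXD1, MXD4, MNT and the glucose-sensing MLXIP and MLXIPL. In the dendritic cell lineage, MYC is a gene of dividing progenitors and MYCL is known from differentiated dendritic cells, while MXD1 is known for its rise as myeloid cells stop dividing.

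The deposited values are normalized counts, which are read counts divided by a factor for each library. Recovered depth was 42983550 to 68253936 reads per library. Etv3 itself had 23050 and 25447 normalized counts in Etv3+/+ against 18691, 20416 and 22856 in Etv3-/-, a log2 difference of -0.23 (95% interval -0.70 to 0.23, adjusted p = 0.567, limma). A total over the whole gene does not check the knockout, since the disrupted part is not stated. Among markers, the dendritic cell genes Itgax (9808 to 16076 normalized counts) and Zbtb46 (9852 to 12295) were present in each library. Of 16 macrophage and monocyte markers, 3 rose in Etv3-/- (C1qa, C1qb and C1qc, the chains of complement C1q), and the summed list was at 35981 and 36546 in Etv3+/+ against 56338, 58660 and 75119 in Etv3-/-. The list leaned further than these genes: 9 of 16 were higher and 0 lower at an unadjusted p under 0.05, DESeq2 called 8 higher and edgeR 3, and the median log2 difference was 1.24 against -0.06 over all tested genes. None of the 3 limma calls passed when Etv3-/- replicate 1, 2 or 3 was left out. Of 15 dendritic cell markers, Ciita, the master activator of MHC class II genes, was the 1 that rose in limma. It did not pass with any single library left out. At an unadjusted p under 0.05, 5 of the 15 were higher and 0 lower, with 4 called higher in DESeq2 and 2 in edgeR. The median log2 difference of this list was 0.31. Its sum was 1.77e+06 and 1.34e+06 in Etv3+/+ against 2.52e+06, 2.53e+06 and 3.33e+06 in Etv3-/-. That sum is weighted towards the most abundant genes of the list, and Itgax and Zbtb46 were a small part of it. None of the tested neutrophil (12), B and plasma cell (9), T and NK cell (10), basophil and mast cell (8) or progenitor and erythroid (5) markers passed in limma. At an unadjusted p under 0.05, 5 B and plasma cell markers were higher and 5 T and NK markers lower, of which DESeq2 called 3 and 2 and edgeR 0; the other 3 lists had 0 by each of these measures. The neutrophil sum was 44812 and 52311 against 13359, 25760 and 70337, the T and NK sum 38326 and 67704 against 19354, 30538 and 17868, and the B and plasma cell sum 2580 and 1898 against 6436, 3761 and 4922. The part of other cells in the values that follow was not tested. Fewer cells of a type and less RNA per cell cannot be told apart in bulk samples.

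Within each library, the deviation of a gene from its mean over libraries was correlated with the gene's GC content, with Spearman's rho across genes of -0.42 in Etv3+/+ replicate 2 and 0.41 in Etv3-/- replicate 3, against 0.04, 0.09 and -0.10 in the other 3 libraries. The mitochondrial share of normalized counts was 6.64% in Etv3+/+ replicate 2 and 1.10% to 3.17% in the others. Results were therefore also computed after a correction for GC content and length, and without both of those libraries.

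Myc, the member of the family with the broadest range of target genes, stood at 294 and 383 normalized counts in Etv3+/+ and at 957, 795 and 1250 in Etv3-/-. Each Etv3-/- library was above each Etv3+/+ library, and the lowest of the former was 2.08-fold the highest of the latter. The group means were 338 ± 62.9 (SD, n = 2) and 1001 ± 231 (SD, n = 3), a ratio of 2.96. On the scale of log2(normalized count + 1), on which all log2 differences here were fitted, Myc differed by 1.55 (SE 0.35, 95% interval 0.73 to 2.37). That difference did not pass the threshold of 0.05 after adjustment over all tested genes (limma, adjusted p = 0.0849, unadjusted p = 0.00247). An exact permutation test, two-sided, gave p = 0.1, the smallest value that 2 against 3 libraries allow. Corrected for GC content and length, the difference was 1.34 (adjusted p = 0.0844, limma), and it was 1.57 without both libraries of strong GC trend (adjusted p = 0.215, limma).

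Mycl, the paralog known from mature dendritic cells, had 957 and 304 normalized counts in Etv3+/+ and 599, 1098 and 1522 in Etv3-/-. The groups overlapped, and the 2 Etv3+/+ libraries stood further apart from each other than the group means of 631 ± 462 (SD, n = 2) and 1073 ± 462 (SD, n = 3). The log2 difference of 0.89 (95% interval -0.44 to 2.22) did not pass (adjusted p = 0.449, limma), and it was -0.24 without both libraries of strong GC trend. Its size rested on which Etv3+/+ library was kept: the difference was 0.06 without Etv3+/+ replicate 2 and 1.72 without Etv3+/+ replicate 1. Mycn, the paralog best known from neural tissue and stem cells, was near the limit of detection, with 33 and 20 recovered reads in Etv3+/+ against 5, 22 and 30 in Etv3-/-. Its log2 difference of -0.50 had a 95% interval of -3.27 to 2.28 (adjusted p = 0.866, limma), and at this depth a change of several-fold in either direction was not detectable.

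Max, the partner that the MYC and MXD proteins share, was the member with the least spread. Its normalized counts were 1497 and 1528 in Etv3+/+ and 1647, 1744 and 1621 in Etv3-/-. The groups did not overlap, but the lowest Etv3-/- library was only 1.06-fold the highest Etv3+/+ library. The log2 difference was 0.14 (95% interval -0.39 to 0.68, adjusted p = 0.792, limma). Within each genotype the libraries had coefficients of variation of 1.48% and 3.86%.

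**Figure D1:**
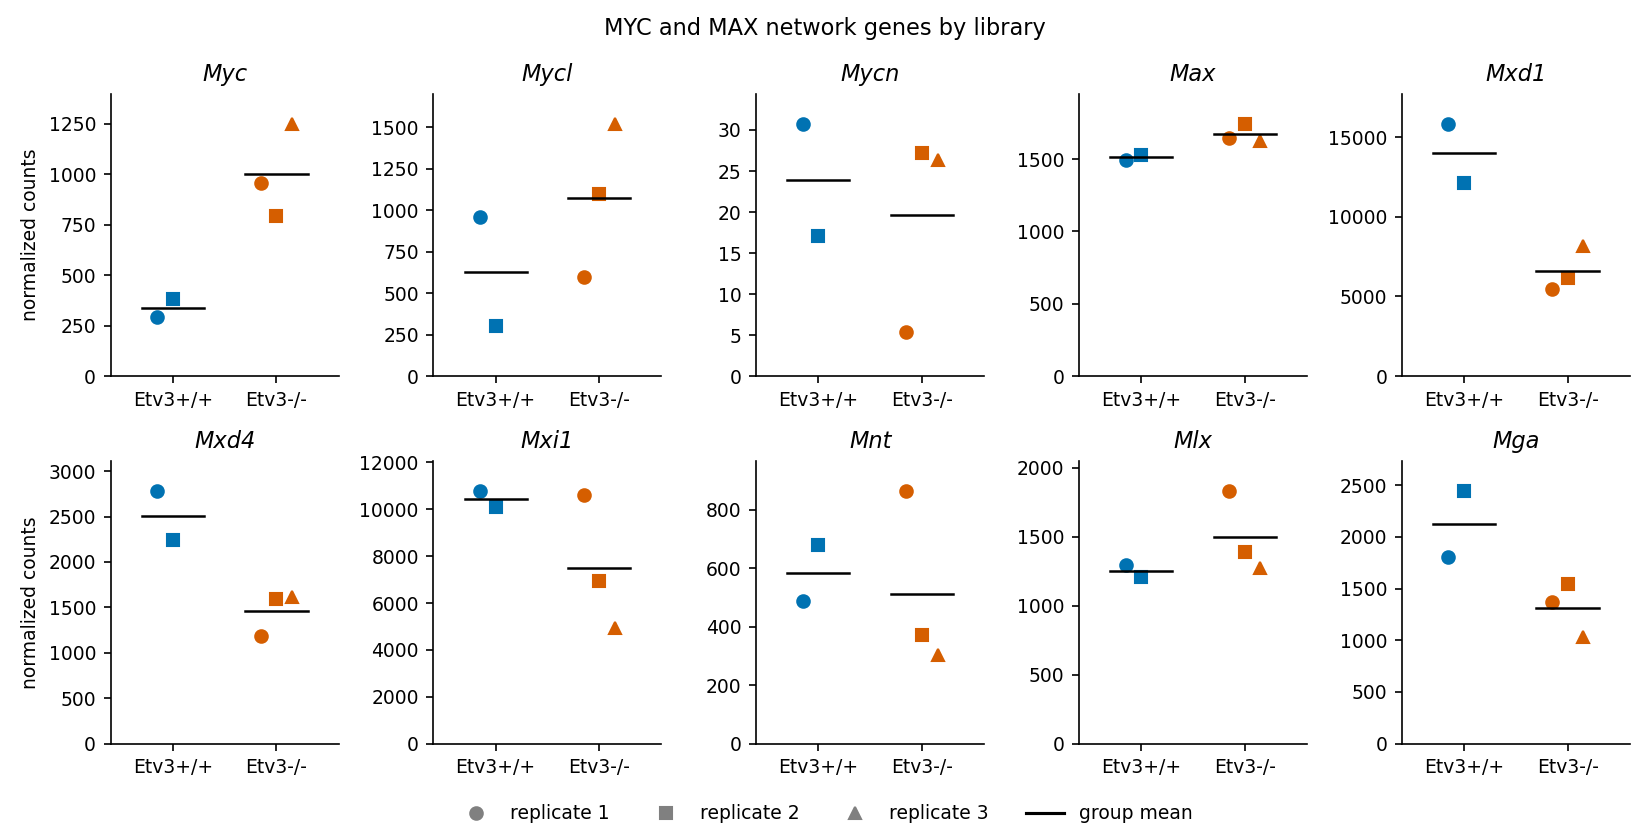
Normalized counts of the 10 network genes (y axis, linear, from 0) by genotype (x axis), with a point for each library, its shape giving the replicate number, and a line at the group mean. The Etv3-/- points of Myc lie between 795 and 1250, above both Etv3+/+ points, and those of Mxd1 lie between 5478 and 8145, below both Etv3+/+ points.

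Promoter sequences of Mxd1 and of the 3 genes with an E-box in their promoter are given ahead of their values, because MYC and MXD proteins read that motif. Windows of 250 bases before the annotated start came from RefSeq (GRCm38.p6) and were found for 9 of the 10 genes (all but Myc), 11 windows in all with 3 for Mxi1. CACGTG, which reads the same on both strands, was in the windows of Mxd4, Mnt and Mlx and is in capitals; 6.02% of all 32851 windows of that length hold it. The Mxd1 window holds none and is shown beside them as the repressor gene with the highest mean count in Etv3+/+ (in Etv3-/- that was Mxi1). The ETS core CCGGAA, searched on both strands, was in 0 of the 11 windows, where 12.0% of all windows hold it. The longer CCGGAAGT, which contains that core, was also in 0, where 2.88% of all windows hold it. A match is a description of letters, and no binding was measured here.
Mxd1, chr6:86669160-86669409, minus strand: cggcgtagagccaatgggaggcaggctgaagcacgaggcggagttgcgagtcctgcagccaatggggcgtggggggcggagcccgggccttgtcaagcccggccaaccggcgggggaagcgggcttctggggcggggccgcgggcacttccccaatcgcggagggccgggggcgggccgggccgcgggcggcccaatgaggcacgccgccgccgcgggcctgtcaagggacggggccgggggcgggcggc
Mxd4, chr5:34187711-34187960, minus strand: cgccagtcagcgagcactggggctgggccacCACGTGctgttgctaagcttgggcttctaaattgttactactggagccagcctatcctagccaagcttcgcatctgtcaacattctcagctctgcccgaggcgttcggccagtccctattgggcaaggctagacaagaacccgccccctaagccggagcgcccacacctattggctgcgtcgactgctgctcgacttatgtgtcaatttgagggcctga
Mnt, chr11:74830674-74830923, plus strand: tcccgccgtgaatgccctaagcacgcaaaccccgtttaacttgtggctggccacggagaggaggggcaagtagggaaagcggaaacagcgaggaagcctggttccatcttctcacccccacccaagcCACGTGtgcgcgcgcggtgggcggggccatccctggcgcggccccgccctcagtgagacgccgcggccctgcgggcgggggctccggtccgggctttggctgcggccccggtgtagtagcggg
Mlx, chr11:101087040-101087289, plus strand: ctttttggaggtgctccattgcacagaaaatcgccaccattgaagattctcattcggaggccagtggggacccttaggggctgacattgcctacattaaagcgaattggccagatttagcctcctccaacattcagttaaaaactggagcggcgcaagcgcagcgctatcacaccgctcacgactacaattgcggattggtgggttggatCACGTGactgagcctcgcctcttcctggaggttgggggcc
The E-box began 219 bases before the start in Mxd4, 123 in Mnt and 40 in Mlx. In the GENCODE M21 annotation of mm10 the whole genes span chr15:61985391-61990374 for Myc, chr6:86647042-86669161 for Mxd1, chr5:34173883-34187720 for Mxd4, chr12:76937269-76962201 for Max and chr2:119897228-119969581 for Mga.

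Mxd1 encodes MXD1 (also called MAD1), which competes with MYC for MAX and recruits the SIN3 corepressor. Its normalized counts were 15839 and 12134 in Etv3+/+ and 5478, 6182 and 8145 in Etv3-/-. Each Etv3-/- library was below each Etv3+/+ library, the reverse of the order seen for Myc. The means were 13986 ± 2620 (SD, n = 2) and 6602 ± 1382 (SD, n = 3), 2.12-fold lower in Etv3-/-, and the log2 difference was -1.09 (SE 0.24, 95% interval -1.65 to -0.53). It did not pass the threshold (limma, adjusted p = 0.0812, unadjusted p = 0.00218, two-sided exact permutation p = 0.1). Corrected for GC content and length, the difference was -1.14 and passed (adjusted p = 0.0257, limma), and without both libraries of strong GC trend it was -1.44 and did not (adjusted p = 0.0859, limma).

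Mxd4, a relative of Mxd1 that is also associated with cells leaving the cycle, had 2778 and 2243 normalized counts in Etv3+/+ and 1185, 1591 and 1617 in Etv3-/-. The groups did not overlap, and the mean of Etv3-/- was 1.71-fold lower. The log2 difference of -0.78 (95% interval -1.39 to -0.18) did not pass (limma, adjusted p = 0.189, unadjusted p = 0.0177). Gm42846, a gene on the opposite strand that is not in the deposited table, shares 514 bases of exon with Mxd4. If reads were counted without strand, reads of that gene would be counted for Mxd4.

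Mxi1 (MXD2), whose counts were next to those of Mxd1 in size, had 10770 and 10114 normalized counts in Etv3+/+ against 10629, 6945 and 4932 in Etv3-/-. Etv3-/- replicate 1 lay within the Etv3+/+ range and the other 2 libraries below it. The log2 difference was -0.55 (95% interval -1.28 to 0.18, adjusted p = 0.407, limma). Mxi1 shares 194 bases of exon with Gm10197, on the opposite strand and not in the table. Mnt, a repressor made in dividing and resting cells alike, had 489 and 679 in Etv3+/+ against 864, 372 and 303 in Etv3-/-, so that the Etv3-/- libraries lay on both sides of the Etv3+/+ pair. Its log2 difference of -0.33 (95% interval -1.51 to 0.86, adjusted p = 0.783, limma) took the other sign, 0.21, without both libraries of strong GC trend.

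Mga encodes the largest protein of the network, a MAX partner and scaffold of the Polycomb complex PRC1.6. It had 1804 and 2442 normalized counts in Etv3+/+ against 1372, 1544 and 1032 in Etv3-/-, with no overlap. The log2 difference was -0.69 (95% interval -1.36 to -0.03; limma, adjusted p = 0.262, unadjusted p = 0.0431). Mga has the lowest GC content of the 10 genes, 42.2% of the bases of its longest transcript. Its highest and lowest values were in Etv3+/+ replicate 2 and Etv3-/- replicate 3. Corrected for GC content and length, the difference was -0.07 (adjusted p = 0.896, limma), and it was -0.31 without both libraries of strong GC trend. Mlx, the MAX-like gene, had 1293 and 1210 against 1828, 1388 and 1274, with overlap and a log2 difference of 0.24 (95% interval -0.39 to 0.87, adjusted p = 0.682, limma). It shares 385 bases of exon with Psmc3ip on the opposite strand, whose own counts were 68.1 to 130.

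**Figure D2:**
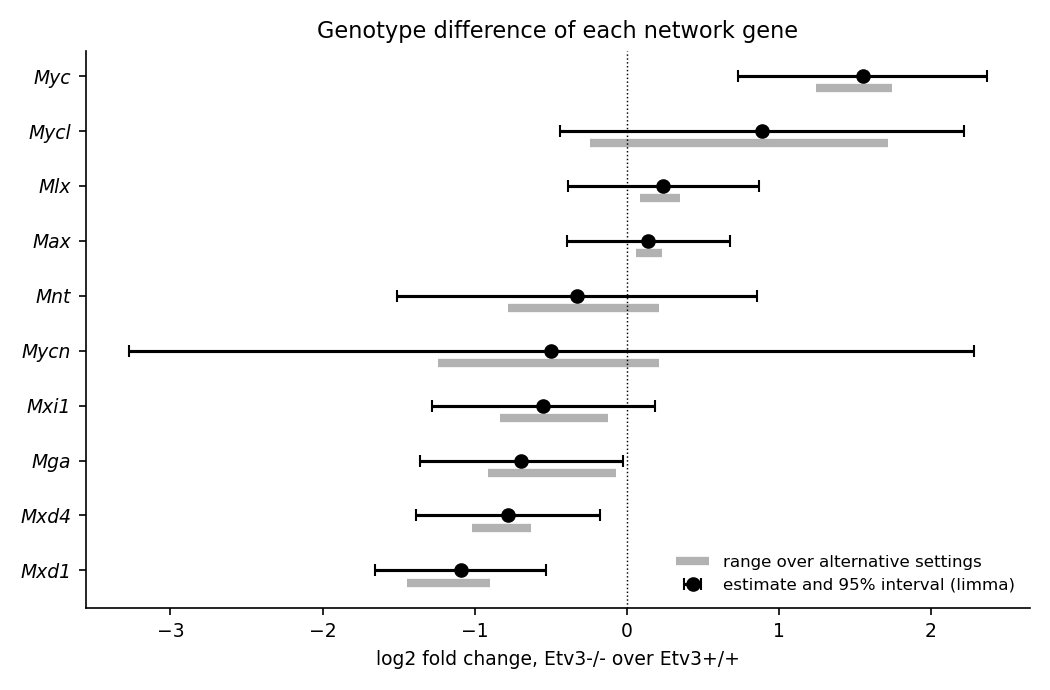
Log2 difference of each network gene, Etv3-/- over Etv3+/+ (x axis), ordered by size: points are limma estimates, thin bars their 95% intervals, and grey bars the range over the alternative settings. The intervals of Myc (0.73 to 2.37), Mxd1 (-1.65 to -0.53), Mxd4 (-1.39 to -0.18) and Mga (-1.36 to -0.03) leave out 0, and the grey bars of Mycl, Mycn and Mnt cross it.

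In limma, 0 of the 10 genes passed an adjusted p under 0.05, where 1.19% of all tested genes did (165 of 13813). At an unadjusted p under 0.05 there were 4 of 10 (Myc, Mxd1, Mxd4 and Mga) against 18% of all tested genes. The 2 genotypes did not overlap for 5 of 10 (Myc and Max higher, Mxd1, Mxd4 and Mga lower in Etv3-/-) against 36% of all tested genes. With edgeR on the recovered reads 0 of 10 passed, where 1.14% of genes did, with adjusted p = 0.0862 for Myc and 0.115 for Mxd1. With DESeq2 on the same reads Myc (adjusted p = 0.00146) and Mxd1 (adjusted p = 0.00277) passed, where 8.46% of genes did. After the correction for GC content and length, limma called Mxd1 alone of the 10, where 2.34% of genes passed. The direction of Myc and of Mxd1 was the same in 20 of 20 alternative settings. Log2 differences there were 1.24 to 1.74 for Myc and -1.44 to -0.90 for Mxd1. All settings drew on the same libraries. Since the groups of both genes did not overlap, leaving libraries out could not change the direction. Myc passed in 1 of the 20 and Mxd1 in 4.

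Levels were compared between genes as normalized counts per kb of exon annotated in GENCODE M21. The annotation used for the counting is not stated, so the lengths counted over may differ from these. In Etv3+/+ libraries the order of mean levels per kb was Mxd1 (1978), Mxi1 (1530), Mlx (626), Max (420), Mxd4 (296), Mycl (156), Mga (138), Mnt (126), Myc (124) and Mycn (7.26). The ranges of the neighbours Mycl, Mga, Mnt and Myc overlapped, and those of the other neighbours were separate. In Etv3-/- libraries the order was Mxi1 (1099), Mxd1 (934), Mlx (749), Max (464), Myc (368), Mycl (266), Mxd4 (173), Mnt (111), Mga (85.8) and Mycn (5.96). There the ranges were separate only between Mlx and Max and between Mga and Mycn. Divided by the longest transcript in place of all exons, Max came out above Mlx in both genotypes (779 against 637 and 860 against 762). Myc then came out above Mnt in Etv3+/+ (145 against 127), and Mxd4 above Mycl in Etv3-/- (317 against 307).

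The same levels give the makeup of the transcripts of MAX partners, as shares of their sum per kb in each library; these are descriptions, since protein was not measured. Mxd1 made up 47.4% and 43.0% of the sum in Etv3+/+ and 23.8%, 30.9% and 37.8% in Etv3-/-. Myc made up 2.29% and 3.53% in Etv3+/+ and 10.8%, 10.3% and 15.1% in Etv3-/-. In these libraries each Etv3-/- share of Mxd1 was below, and each Etv3-/- share of Myc above, both Etv3+/+ shares; the shares were not tested, and neither gene passed in limma. The level of Mxd1 per kb was 20.7 and 12.2 times that of Myc in Etv3+/+ against 2.20, 2.99 and 2.50 times in Etv3-/-.

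For the families as a whole, Myc, Mycl and Mycn together held 7.50% and 5.54% in Etv3+/+ against 15.5%, 20.2% and 27.8% in Etv3-/-. Mxd1, Mxd4, Mxi1 and Mnt together held 90.0% and 90.5% against 81.8%, 76.2% and 70.0%. The repressor transcripts were the larger part in each of the 5 libraries. Summed partners per unit of Max were 11.4 and 9.39 in Etv3+/+ and 7.10, 5.85 and 6.75 in Etv3-/-. The share of Myc within its own family did not separate the genotypes, at 30.5% and 63.6% against 70.1%, 51.1% and 54.5%, since Mycl varied so much between the Etv3+/+ libraries.

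**Figure D3:**
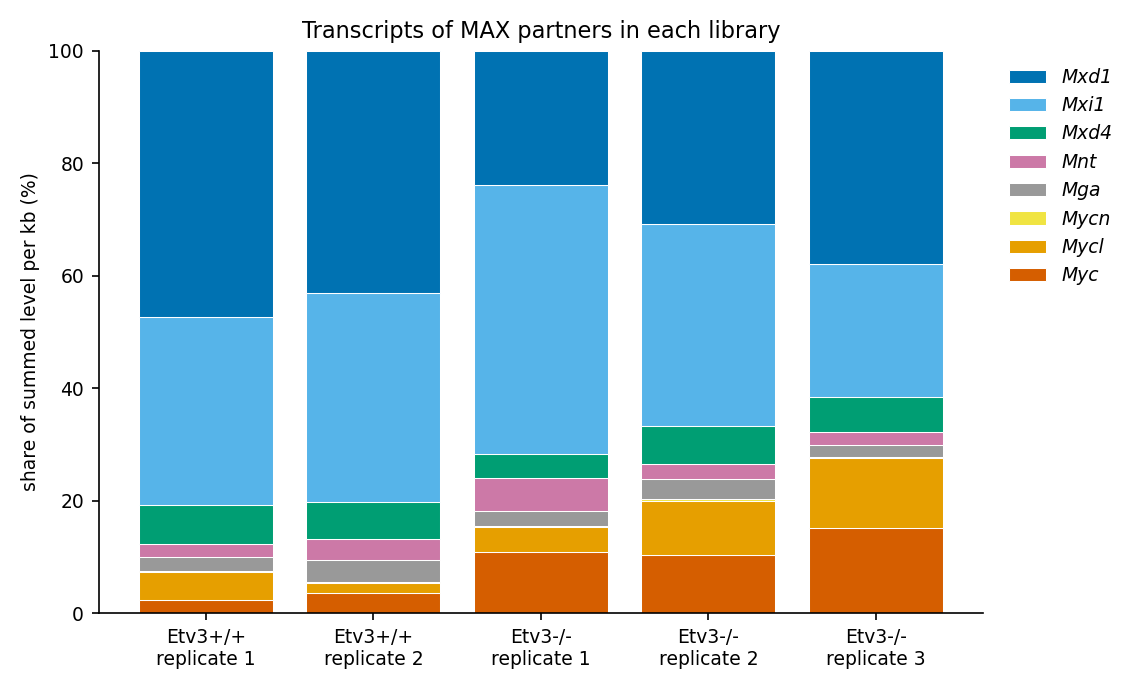
Share of each MAX partner in the summed level per kb of exon (y axis, percent) in each of the 5 libraries (x axis). The Myc segment is 2.29% and 3.53% in the Etv3+/+ libraries and 10.3% to 15.1% in the Etv3-/- libraries, while Mxd1 goes from 43.0% or more to 37.8% or less.

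The values against each library's GC trend differ between genes. Mga had its highest count in the library at rho -0.42 and its lowest in the library at 0.41. In the 3 libraries with rho between -0.10 and 0.09, Myc was at 294 in Etv3+/+ against 957 and 795 in Etv3-/-. Mxd1 was at 15839 against 5478 and 6182 there, and Mga at 1804 against 1372 and 1544. The genotypes did not overlap for Myc, Mxd1 and Mga over all libraries. Their order among these 3 was therefore fixed and is no check on the GC trend. Mycl had its lowest count at -0.42 and its highest at 0.41. The part of the GC trend in these values was not tested beyond the correction and the omission given above.

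**Figure D4:**
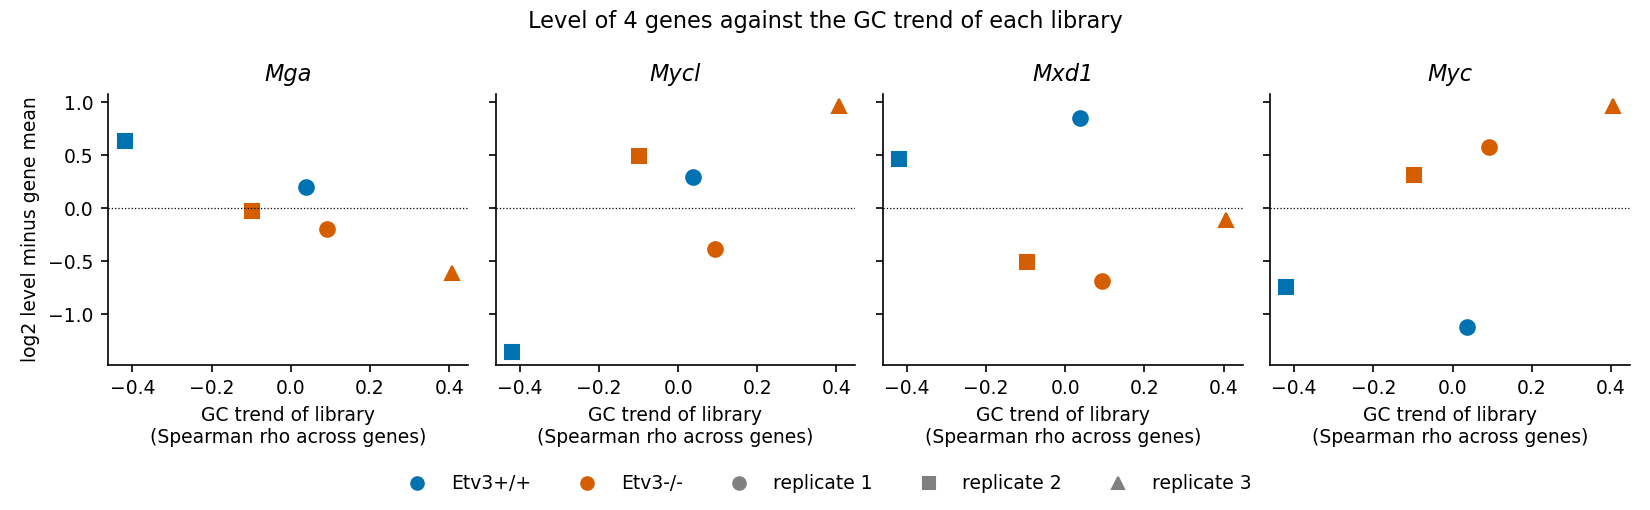
Level of Mga, Mycl, Mxd1 and Myc in each library (y axis, log2 level minus the gene's mean over the 5 libraries) against the GC trend of that library (x axis, Spearman's rho across genes, -0.42 to 0.41). Mga is highest at the left end and lowest at the right end, and Mycl is the reverse. Myc, Mxd1 and Mga are split by genotype over all 5 libraries, and hence also among the 3 near 0.

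Other genes of the network, its partners and its known targets were read from the same fit as 10 lists, which hold 194 tested genes counted once. Of these 194, limma called 1 higher and 2 lower in Etv3-/-, edgeR 2 and 1, and DESeq2 12 and 5; at an unadjusted p under 0.05 in limma there were 23 and 18. Over all 13813 tested genes the unadjusted counts were 1108 higher and 1372 lower, or 18%. Calls in either direction were 1.19% of all tested genes in limma, 1.14% in edgeR and 8.46% in DESeq2. In the lists with no limma call, edgeR called none but 1 cell cycle gene (higher). All 13813 tested genes had a median log2 difference of -0.06. Of the 5 tested network genes outside the 10, none passed in limma, at an unadjusted p under 0.05 or in DESeq2 (median -0.24). The highest mean counts over the 5 libraries, the measure by which genes are named in lists with no call, were those of Mlxip, the glucose-sensing MLX partner, at means of 5498 and 5473 normalized counts in Etv3+/+ and Etv3-/-, and Mycbp2, an E3 ligase named for MYC binding, at 4112 and 3562. Mycs was at 0 in all 5 libraries.

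Among 18 MYC cofactors (TIP60, P-TEFb, WDR5 and the like) none passed in limma or DESeq2, 1 was higher at an unadjusted p under 0.05, and the median was 0.09. Cdk9, the kinase of P-TEFb that releases paused polymerase, had means of 6629 in Etv3+/+ and 7290 in Etv3-/-, and Paf1, a subunit of the PAF elongation complex, 5835 and 4550. Among 18 genes of MYC turnover none passed in limma (median -0.16), with 2 higher and 3 lower at an unadjusted p under 0.05 and 1 higher in DESeq2, and the highest means over the 5 libraries were those of Trpc4ap (19781 in Etv3+/+ and 21065 in Etv3-/-) and Ppp2r5a (11160 and 7828). Of 20 genes of the SIN3 and NCOR corepressors, through which MXD proteins repress, none passed in limma or DESeq2 (median -0.26), with 1 higher and 4 lower at an unadjusted p under 0.05. The histone chaperones Rbbp4 (17087 and 18399) and Rbbp7 (15001 and 9927) had the highest means over the 5 libraries. Of 10 genes of the MGA complex PRC1.6 none passed in limma or DESeq2 and 1 was higher and 1 lower at an unadjusted p under 0.05 (median -0.41), and Yaf2 (4113 and 2931) and Wdr5 (1679 and 2715) had the highest means over the 5 libraries.

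Of 42 metabolism and growth genes known as MYC-activated, Odc1 rose and none fell (median 0.17, with 29 of 42 above 0, as were 46.3% of all tested genes). At an unadjusted p under 0.05, 10 were higher and 1 lower, and DESeq2 called 6 higher and edgeR 1. Odc1, the rate-limiting enzyme of polyamine synthesis and a classical MYC target, had 2721 and 2356 normalized counts in Etv3+/+ and 5735, 7402 and 8626 in Etv3-/-. Its groups were well apart, at means of 2539 ± 258 (SD, n = 2) and 7254 ± 1451 (SD, n = 3), with a log2 difference of 1.50 (SE 0.24, adjusted p = 0.0348, limma). It passed in 13 of 20 alternative settings, but not with any single library left out (adjusted p = 0.0905 to 0.124, limma). Of 35 ribosome and nucleolus genes, the other large class of MYC-activated genes, none passed in limma and 3 were called higher in DESeq2. Their median was 0.32, with 27 of 35 above 0 and 5 higher and 0 lower at an unadjusted p under 0.05. The 2 with the highest means over the 5 libraries, the nucleolar protein genes Npm1 and Ncl, had means of 72798 and 19131 in Etv3+/+ and 55818 and 16411 in Etv3-/- (adjusted p = 0.822 and 0.727, limma). The median of the ribosome and nucleolus list was between 0.23 and 0.41 with each library left out, under other scalings and after the correction for GC content and length. That of the metabolism and growth list was between 0.08 and 0.37 in the same settings.

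Of 18 genes known as MYC-repressed, 2 fell and none rose (median -0.14, with 7 of 18 above 0, as were 46.3% of all tested genes). At an unadjusted p under 0.05, 0 were higher and 6 lower, with 3 called lower in DESeq2 and 1 in edgeR. Cdkn1b encodes p27, an inhibitor of cyclin-dependent kinases. It had 1509 and 1478 normalized counts in Etv3+/+ and 367, 327 and 159 in Etv3-/-. These groups were well apart, with a mean of 1493 ± 21.9 (SD, n = 2) that was 5.26-fold that of Etv3-/-, 284 ± 110 (SD, n = 3), and a log2 difference of -2.48 (SE 0.44, adjusted p = 0.0492, limma). Cdkn2b encodes p15, an inhibitor of CDK4 and CDK6 that MYC is known to repress through MIZ1. It had 4204 and 3335 in Etv3+/+ against 1242, 1143 and 1619 in Etv3-/-, a log2 difference of -1.50 (SE 0.26, adjusted p = 0.0440, limma). Cdkn1b passed in 8 of 20 alternative settings and Cdkn2b in 9. Both lost the call with any single library left out. With 1 Etv3-/- library left out, adjusted p was 0.109 to 0.134 for Cdkn1b and 0.105 to 0.158 for Cdkn2b (limma).

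Of 21 MYC-activated cell cycle genes none passed in limma (median -0.01, with 10 of 21 above 0). There were 2 higher and 1 lower at an unadjusted p under 0.05, and likewise in DESeq2. Id2 (means of 120152 in Etv3+/+ and 85425 in Etv3-/-) and Cdk4 (5551 and 7637) had the highest means over the 5 libraries. Of 23 proliferation markers none passed in limma and 2 were called lower in DESeq2 (median -0.30, with 6 of 23 above 0). At an unadjusted p under 0.05, 2 were higher and 4 lower. The summed proliferation markers were 18591 and 20267 normalized counts in Etv3+/+ and 13195, 15169 and 13219 in Etv3-/-, so each Etv3-/- library was below both Etv3+/+ libraries. Pcna (4733 and 2769) and Tyms (3358 and 1369) had the highest means over the 5 libraries and so weighed most in that sum. Gene by gene, the groups did not overlap for 3 markers higher and 7 lower, against 36% of all tested genes. Of the 10 tested targets of MLX and its glucose-sensing partners none passed in limma (median 0.31), with 4 higher and 2 lower at an unadjusted p under 0.05 and 2 higher and 1 lower in DESeq2. Txnip, a brake on glucose uptake, had 10415 and 18162 against 40644, 22563 and 26260. Arrdc4, a related arrestin, had 14551 and 18733 against 22938, 24649 and 27347.

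**Figure D5:**
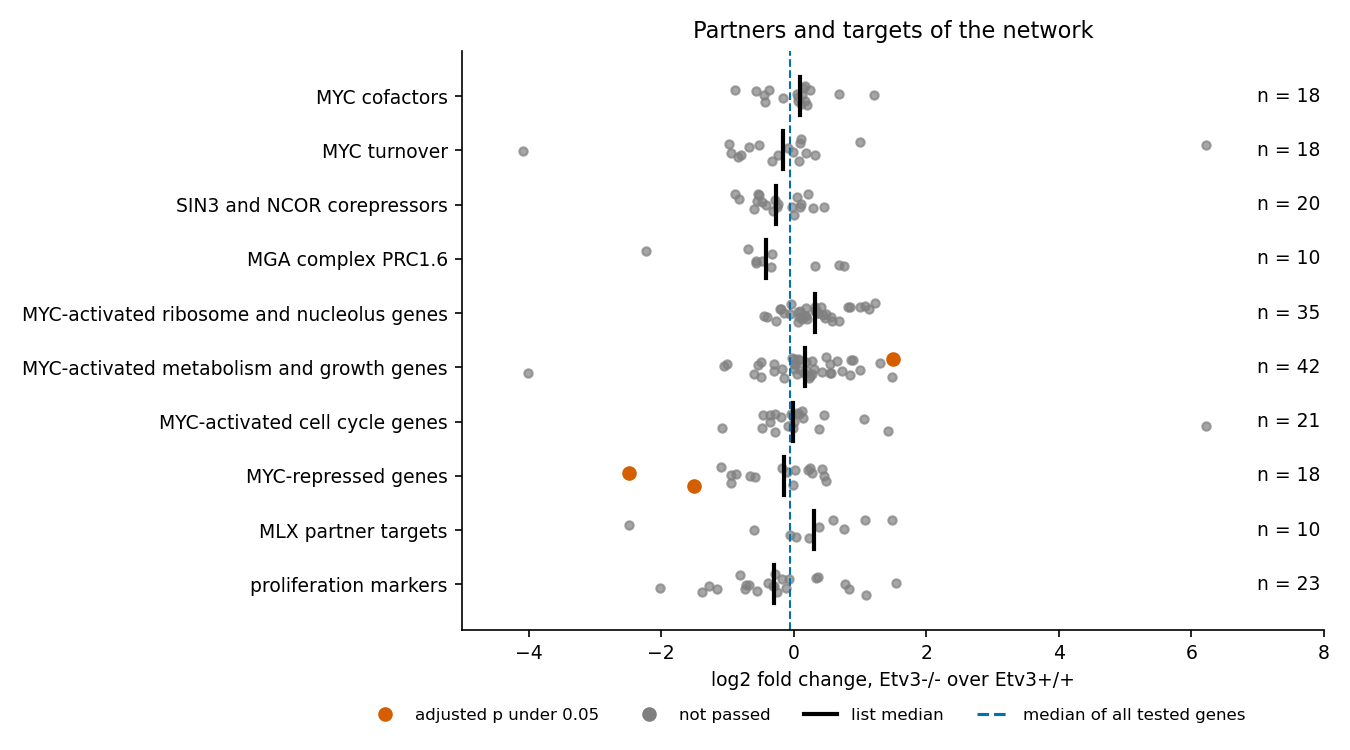
Log2 difference of each tested gene (points, x axis, Etv3-/- over Etv3+/+) in the lists of network partners and targets (y axis), with a black bar at each list's median and a dashed line at the median of all tested genes, -0.06. The points past the threshold are Odc1 on the right and Cdkn1b and Cdkn2b on the left.

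Genes with the pattern most like that of Myc were those with the smallest root mean square distance between log2 values over the 5 libraries, each gene centred on its own mean, among 13803 genes. For Myc, whose own root mean square size was 0.80, they were Rpl9-ps7 (distance 0.11), Rrp1b (0.12) and Dnah2 (0.13). Rrp1b, a nucleolar protein gene, had 380 and 433 normalized counts in Etv3+/+ and 1237, 934 and 1302 in Etv3-/-. Dnah2, a gene of an axonemal dynein chain, had 2871 and 3058 against 7325, 7397 and 10934 and passed the test (log2 difference 1.50, adjusted p = 0.0350, limma). For Mycl they were Ribc1 (0.18), Hcar2 (0.21) and Fam160a1 (0.22), none of which passed in limma. Rpl9-ps7 is a ribosomal pseudogene whose reads may belong to its parent gene. The genes were chosen for this likeness, so it is a description.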

How the data were processed

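RNA-seq was measured in 5 libraries, grouped by their genotype label. The authors deposited 1 table of normalized counts, a signal in which each gene's read count is divided by a library factor. The submitters' processing notes name the build mm10 and the tools DESeq2 1.26.0, STAR 2.7.3a, Subread 1.6.3, Trimmomatic 0.36 and featureCounts. Neither notes nor labels give the annotation, strand setting or filters. Values were whole multiples of 1 step per library, 0.856 to 1.24 normalized counts per read, and 100% of values came out within 0.1 of a whole read.

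Genes that reached 10 normalized counts in 2 or more libraries were tested with limma 3.58.1 (trend, R 4.3.3) on log2(normalized count + 1), two-sided, at a threshold of 0.05 after Benjamini-Hochberg adjustment. This scale understates changes of low genes. On the recovered reads, edgeR 4.0.16 called 158 genes and DESeq2 1.42.0 called 1169. Exact permutation tests have 10 placements of the libraries. Further alternatives changed the pseudocount, the filter, the scaling or the limma options, added sample weights or a replicate block, left out libraries, or removed trends with GC content and length by local regression (span 0.3, 98.5% of tested genes annotated).

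The network genes and the lists were chosen with earlier results of these data known. The rule for named genes took all 10 network genes and Etv3. From each list it took up to 4 genes past the threshold with the largest absolute log2 difference, or else the 2 with the highest mean, and it added the 3 genes most like Myc and Mycl. Positions, exon lengths and GC content came from GENCODE M21. Figures were drawn with matplotlib 3.10.9.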

Additional observations from a re-analysis of the deposited data

How the results depend on the processing

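limma called 121 genes higher and 44 lower in Etv3-/-. Higher calls were 44 without trend, 636 in DESeq2, 220 after the GC and length correction, 6 without both libraries of strong GC trend and 0 to 73 with 1 library left out. Lower calls were 70 with a pseudocount of 5, 88 with a mean of 50 or more, 533 in DESeq2, 103 after the GC and length correction, 1 without both libraries of strong GC trend and 0 to 7 with 1 library left out. Of the 10 network genes, limma called 0 in either direction; DESeq2 called 1 higher (Myc) and 1 lower (Mxd1), and the GC and length correction called 1 lower (Mxd1). The replicate numbers share only a number: same-numbered libraries deviated together with correlations of -0.03 and 0.04 over the 2 numbers both groups have. With the replicate block 151 genes were called higher and 118 lower, including 1 network gene, Mxd1 (-1.25, adjusted p = 0.0349, limma), and with the block and the GC and length correction 181 and 110, again including 1, Mxd1 (adjusted p = 0.0250, limma).

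Of the listed partners and targets, 1 was called higher and 2 lower. Higher calls were 2 with a pseudocount of 5, a mean of 50 or more, TMM scaling, quantile scaling, robust limma, edgeR, or the GC and length correction. They were 12 in DESeq2, 3 with the replicate block with or without that correction, and 0 without trend, without both libraries of strong GC trend and with any 1 library left out. Lower calls were 1 with a pseudocount of 0.5, TMM scaling, quantile scaling, sample weights, edgeR, or the replicate block with or without the correction. They were 5 in DESeq2 and 0 without a filter, without trend, without both libraries of strong GC trend and with any 1 library left out.

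Cdkn1b lost its call with the replicate block (adjusted p = 0.0523, limma). Log2 differences changed sign for Mycl (-0.24) and Mnt (0.21) without both libraries of strong GC trend and for Mycn (0.21) without Etv3-/- replicate 1, where leaving out each library in turn gave -0.90 to 0.21; the cause was not tested. Per kb of the longest transcript, levels in Etv3+/+ and Etv3-/- were 779 and 860 for Max, 2998 and 1415 for Mxd1, 543 and 317 for Mxd4, and 2073 in Etv3+/+ for Mxi1; the shorter length divided by makes these higher. Depth bears most on Mycn, with 5 to 33 reads per library. The log2 difference of Mga, -0.69, was -0.07 after the GC and length correction, which removes both trends together. It was -0.31 without both libraries of strong GC trend, and the part of GC content or of length was not tested.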

Other observations

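Among the listed genes that did not pass in limma, 3 with groups far apart were picked out after their values were seen. Skp2, an F-box protein of the ubiquitin ligase that marks p27 and MYC for breakdown, had 0 and 1.71 normalized counts in Etv3+/+ against 145, 385 and 32.4 in Etv3-/- (adjusted p = 0.0761, limma), and it passed in 4 of 20 alternative settings. Ccne1, the cyclin E1 gene, had 606 and 631 against 1711, 1765 and 1528, a log2 difference of 1.43 (SE 0.26, adjusted p = 0.0518, limma), and passed in 7 of 20. Arrdc3, an arrestin gene of the same family as Txnip and Arrdc4, had 909 and 1119 against 113, 303 and 170, a log2 difference of -2.48 (SE 0.51, adjusted p = 0.0675, limma), and passed in 2 of 20. Its order between the genotypes was the reverse of that of Txnip and Arrdc4.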
